A study of Mus musculus with 104 samples.

Results

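Embryos without Tet1 and Tet2 (labelled Tet1-/-;Tet2-/-, here DKO) were followed between the E6.5 epiblast and the E8.5 head, across all genes of the deposited expression table. The libraries are 2 DKO heads and 2 DKO epiblasts, 4 of the 104 samples of the series. Of 22586 genes in the table, 10636 reached at least 1 FPKM (fragments per kilobase of transcript, scaled to the number of mapped fragments) in at least 2 of these 4 libraries and were tested. DKO heads were the part in front of a cut near the neck of embryos at embryonic day 8.5, and DKO epiblasts came from day 6.5. The 5 wild-type (WT) libraries of the same table, 2 E8.5 heads and 3 E6.5 epiblasts, are cited beside them, and the WT epiblasts carry the label of the series' Kmt2b experiment. Crosses of DBA2 males with C57BL/6N females are named for the series, and nothing says how many embryos entered a library or whether libraries are separate litters, so p-values measure the spread between these libraries. The alleles are labelled as absent in the whole embryo, with no conditional Cre named. Stage and tissue change together between the groups.

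Tet1, Tet2 and Tet3 oxidize 5-methylcytosine, the methyl mark that Dnmt3a and Dnmt3b place on CpG dinucleotides, and oxidized cytosine can be replaced by an unmodified base. The epiblast is the pluripotent layer from which the body is formed, and it holds transcription factors such as Oct4 (gene Pou5f1), Nanog and Otx2. The head at the later stage contains the neural plate of the future forebrain, midbrain and hindbrain, the neural crest at its border, mesenchyme, surface ectoderm and small vessels.

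The targeted genes come first. Tet1 had 1.28 and 1.29 FPKM in DKO heads and 3.82 and 2.92 FPKM in DKO epiblasts, and 2.55 and 3.33 FPKM in WT heads and 4.77, 6.29 and 5.02 FPKM in WT epiblasts. Both DKO heads lay below both DKO epiblasts (log2 change -0.92, SE 0.19, adjusted p = 0.023), and DKO libraries lay below WT libraries at each stage without reaching 0. The labels do not give the deleted exons, and FPKM per gene cannot show whether the remaining fragments come from a partly deleted transcript. Tet2 was under 0.5 FPKM in all 9 libraries and was not tested. Tet3, the family member that is not targeted, had 3.24 and 3.53 FPKM in DKO heads and 1.15 and 1.58 FPKM in DKO epiblasts, with both heads higher (log2 change 0.90, SE 0.19, adjusted p = 0.023).

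Epiblast and neural head markers matched the labelled tissues in both stages. Summed over the epiblast markers, DKO heads had 48.3 to 58.5 FPKM and DKO epiblasts 2384 to 2672 FPKM, while for the neural head markers the sums were 75.6 to 101 FPKM in DKO heads and 5.04 to 6.46 FPKM in DKO epiblasts. Visceral endoderm markers summed to 2.55 to 4.93 FPKM in DKO heads, with Afp, Apoa4 and Hnf4a at 0, and to 6.20 to 7.77 FPKM in DKO epiblasts, with Apoa4 and Apob at 0. Surface ectoderm markers did not separate the stages, with 162 to 236 FPKM in DKO heads and 226 to 422 FPKM in DKO epiblasts. Heart muscle markers summed to 5.21 to 8.37 FPKM in DKO heads and to 13.5 to 13.8 FPKM in DKO epiblasts. Only 1 of the 7 heart markers reached 1 FPKM in both DKO epiblasts, with Tnnt2 and Tnni1 at 0, and 3 did in both DKO heads. Blood RNA came with 1 library: Hbb-bh1, an embryonic globin, had 187 and 2.63 FPKM in DKO heads and 0 and 0.425 FPKM in DKO epiblasts. The globins were high in the first head only.

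The 2 DKO epiblasts differ from each other more than the 2 DKO heads do. A difference of at least 2-fold separated the epiblasts at 820 of the 10636 genes and the heads at 82. Over all 22586 genes of the table, Pearson's r was 0.980 between epiblasts and 0.994 between heads (a description across genes). These include 5627 genes listed at 0 in all 4 DKO libraries. The second epiblast lacked RNA of Y-linked genes: Eif2s3y had 45 and 42.9 FPKM in DKO heads and 63.5 and 0.125 FPKM in DKO epiblasts. Many genes of the endoplasmic reticulum were also lower in it. For 22 genes of protein folding and import there, chosen after their values were seen, its median difference from the first epiblast was -2.43 on the log2 scale, and 20 were at least 2-fold lower. Hspa5, the reticulum's main chaperone, had 624 and 397 FPKM in DKO heads and 192 and 11 FPKM in DKO epiblasts. Sec61b, a subunit of the import channel, was like the first epiblast in this library, with 227 and 239 FPKM in DKO heads and 120.3 and 138 FPKM in DKO epiblasts. Genes with symbols starting in Tmem, which encode membrane proteins, had a median difference of -0.42 between the epiblasts and 50 of the 146 tested rose (34.2%), beside 19.1% of all tested genes. The part of this library in the rises of membrane and secreted proteins was not tested. Counts without it are given below for all tested genes and for some lists, but not for these proteins.

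**Figure D1:**
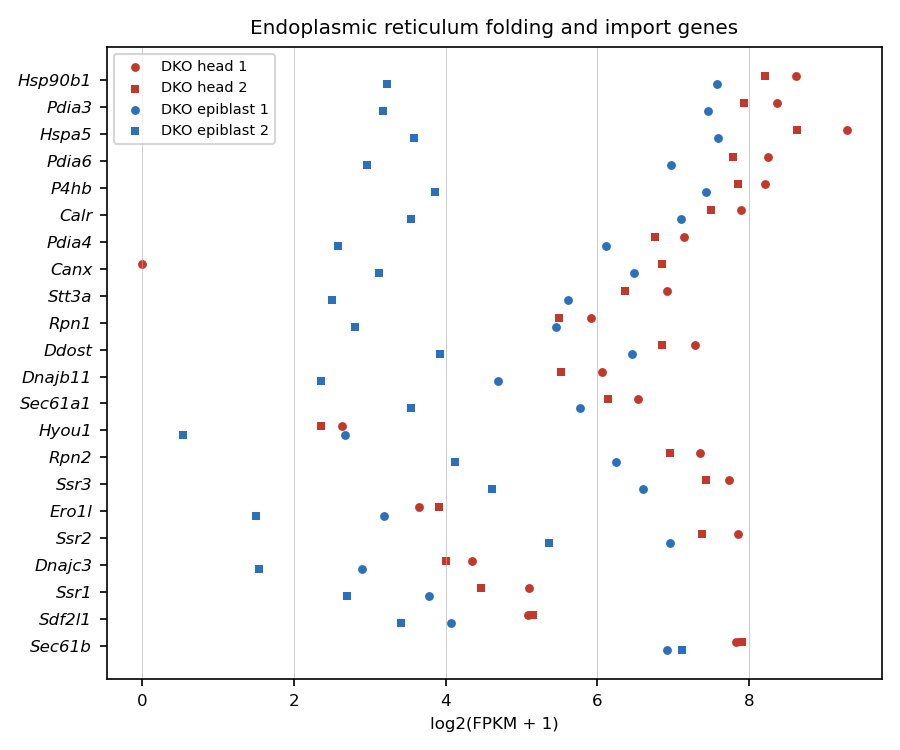
Level of 22 genes of protein folding and import at the endoplasmic reticulum as log2(FPKM + 1) (horizontal axis), with a point for each DKO head (red) and DKO epiblast (blue). The second DKO epiblast sits below the first at most of them, with 11 against 192 FPKM for Hspa5, and the heads lie near each other except at Canx, which is listed at 0 in the first head.

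Between DKO epiblast and DKO head, 4572 of 10636 tested genes changed (43.0%) at an adjusted p under 0.05 (limma on log2(FPKM + 1), Benjamini-Hochberg adjustment). Of these, 2035 rose (19.1%) and 2537 fell (23.9%), and the median change of all tested genes was 0.0047 on the log2 scale. A change of at least 2-fold was found for 1076 risers (10.1%) and 1295 fallers (12.2%), and at least 8-fold for 60 (0.564%) and 66 (0.621%). Stages did not overlap at 8288 of the tested genes (77.9%), so a lack of overlap on its own is common here. In bulk tissue, fewer cells of a type and less RNA per cell cannot be told apart. Calls rest on both heads being present: without the first head 8 genes were called and without the second 6, where the spread is that of the epiblasts and a lone head is assumed to vary like them. Without the second epiblast 5343 were called, with 2706 higher (25.4%) and 2637 lower (24.8%), and 4311 of the 4572 were among them with the same direction. That fit assumes that the lone epiblast varies like the heads.

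**Figure D2:**
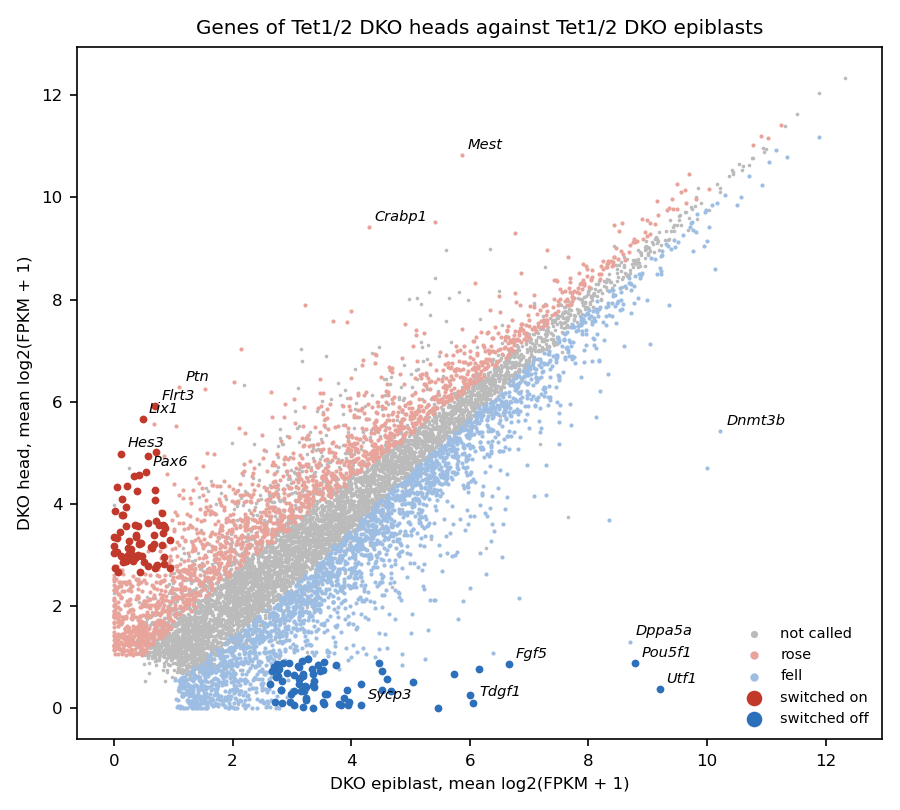
Mean log2(FPKM + 1) of every tested gene in DKO heads (vertical axis) against DKO epiblasts (horizontal axis), with called genes coloured by direction and switched genes as large points. Utf1, Pou5f1 and Dppa5a lie far below the diagonal at the lower right, and Flrt3, Ptn, Lix1, Crabp1 and Mest far above it.

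The steepest falls were those of genes that mark the pluripotent epiblast. Utf1, a chromatin-bound factor of pluripotent cells, had 0.433 and 0.144 FPKM in DKO heads and 589 and 590.4 FPKM in DKO epiblasts. Pou5f1 had 0.698 and 0.975 FPKM in DKO heads and 458 and 425 FPKM in DKO epiblasts, and Dppa5a, an RNA-binding protein of pluripotent cells, had 1.27 and 1.64 FPKM in DKO heads and 420.1 and 406 FPKM in DKO epiblasts. Each was abundant in both epiblasts and under 2 FPKM in both heads. Their log2 changes were -8.85 (SE 0.15), -7.92 (SE 0.13) and -7.40 (SE 0.12), the 3 with adjusted p = 0.00049. Tdgf1, the Nodal co-receptor Cripto, had 0.0273 and 0.113 FPKM in DKO heads and 97.3 and 43.7 FPKM in DKO epiblasts, so that the epiblasts differed 2-fold among themselves and still lay far above the heads (log2 change -5.95, SE 0.41, adjusted p = 0.0037). Fgf5, a growth factor that marks the primed epiblast, had 0.9 and 0.715 FPKM in DKO heads and 122 and 82.2 FPKM in DKO epiblasts (log2 change -5.81, SE 0.24, adjusted p = 0.0025). Dppa4 was listed at 0 in both DKO heads, against 37.9 and 48.7 FPKM in DKO epiblasts (adjusted p = 0.0023). L1td1, an RNA-binding protein derived from a transposon, had 0.112 and 0.26 FPKM in DKO heads and 58.2 and 68.8 FPKM in DKO epiblasts, and Vrtn had 0.537 and 0.625 FPKM in DKO heads and 49.5 and 54.6 FPKM in DKO epiblasts. Pim2, a serine/threonine kinase, remained detectable in heads at a much lower level, with 17.7 and 35.1 FPKM in DKO heads and 926 and 1136 FPKM in DKO epiblasts (log2 change -5.30, SE 0.34, adjusted p = 0.0035). Tuba4a, an alpha tubulin, had 0.495 and 0.934 FPKM in DKO heads and 65.1 and 75.3 FPKM in DKO epiblasts. Sf3a2, a splicing factor subunit, had 1.08 and 1.14 FPKM in DKO heads and 77.5 and 88.3 FPKM in DKO epiblasts, but 1.3 and 1.97 FPKM in WT heads and 1.26, 6.5 and 1.51 FPKM in WT epiblasts. Its WT stages overlapped, and no WT library came near the DKO epiblasts.

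The 12 largest rises included cell-surface, secreted and neural genes. Flrt3, a membrane protein that binds axon guidance and Fgf receptors, had 67.6 and 51.4 FPKM in DKO heads and 0.67 and 0.567 FPKM in DKO epiblasts (log2 change 5.21, SE 0.20, adjusted p = 0.0023). Ptn, the secreted growth factor pleiotrophin, had 78.7 and 74.8 FPKM in DKO heads and 2.14 and 0.463 FPKM in DKO epiblasts (log2 change 5.18, SE 0.40, adjusted p = 0.004). Lix1 had 53.3 and 45.9 FPKM in DKO heads and 0.0805 and 0.807 FPKM in DKO epiblasts, again with no overlap and a wide gap between stages (log2 change 5.17, SE 0.30, adjusted p = 0.0033). Crabp1, which binds retinoic acid in the cytoplasm, had 724 and 646 FPKM in DKO heads and 20.2 and 17.2 FPKM in DKO epiblasts (log2 change 5.13, SE 0.11, adjusted p = 0.00095). Mest, an imprinted gene, was among the most abundant of the risers with 1917 and 1733 FPKM in DKO heads and 102 and 32 FPKM in DKO epiblasts (log2 change 4.97, SE 0.55, adjusted p = 0.0064). Hesx1 had 32.5 and 64.8 FPKM in DKO heads and 0.186 and 1.16 FPKM in DKO epiblasts, a 2-fold spread between heads with both far above the epiblasts (log2 change 4.88, SE 0.46, adjusted p = 0.0049); it encodes a repressor of the anterior neural plate and pituitary. Hes3, a repressor of neural progenitors, had 28.5 and 32.8 FPKM in DKO heads and 0 and 0.192 FPKM in DKO epiblasts. Wls, the carrier that takes Wnt proteins to the cell surface, had 164 and 103 FPKM in DKO heads and 6.17 and 1.73 FPKM in DKO epiblasts, and Prtg, a receptor of the neural epithelium, had 85.8 and 65.8 FPKM in DKO heads and 3.78 and 0.771 FPKM in DKO epiblasts. Tmem47 had 79.2 and 85.9 FPKM in DKO heads and 3.35 and 2.79 FPKM in DKO epiblasts and Id2, an inhibitor of basic helix-loop-helix factors, had 247 and 228 FPKM in DKO heads and 3.64 and 17.7 FPKM in DKO epiblasts. Peg12 had 42.2 and 48.2 FPKM in DKO heads and 0.946 and 1.19 FPKM in DKO epiblasts. For Mest, Wls, Prtg, Ptn and Id2 one epiblast was at least 2-fold above the other, and for each both heads exceeded both epiblasts. The same held at low epiblast levels for Lix1, Hesx1 and Hes3.

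**Figure D3:**
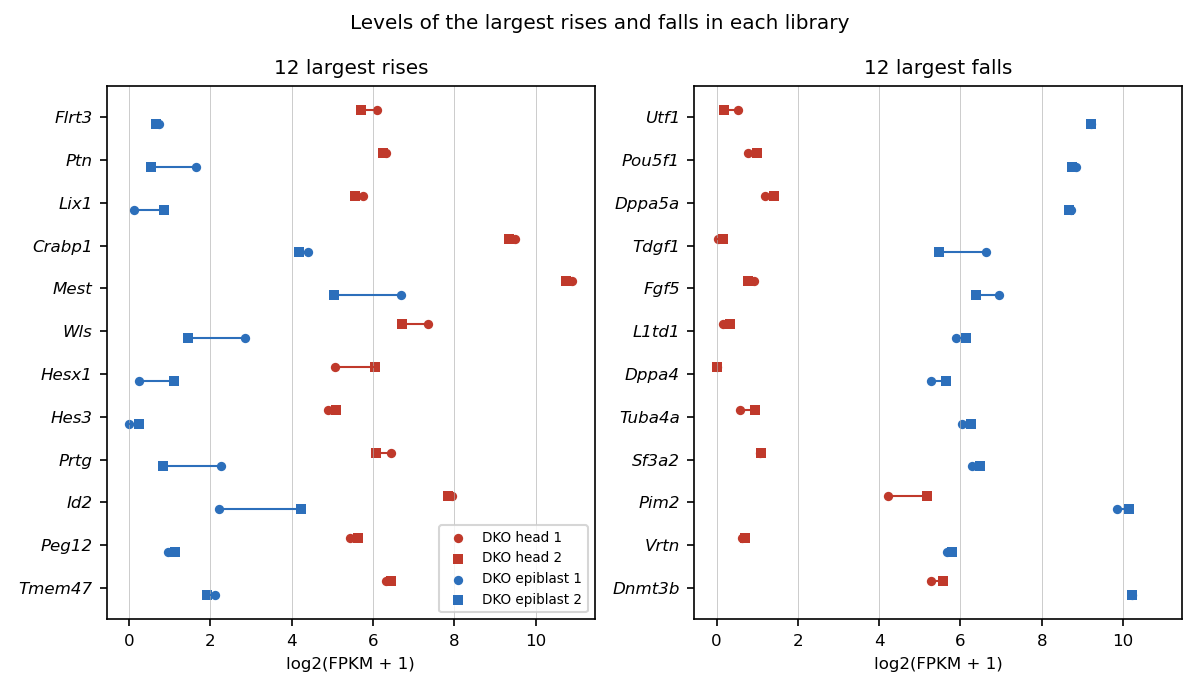
Level in each DKO library, as log2(FPKM + 1), of the 12 genes with the largest rise and the 12 with the largest fall, with DKO heads in red and DKO epiblasts in blue and a line joining libraries of a stage. In every one of these genes the stages are apart, with Utf1 at 0.433 and 0.144 FPKM in heads and 589 and 590.4 FPKM in epiblasts.

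Tet enzymes act on CpG dinucleotides that carry the methyl mark. Promoters of 6 of the genes above and of the switched genes below are shown because their CpG dinucleotides range between 2 and 23. Each is the 250 bases before the most upstream start in RefSeq (build GRCm38.p6), 5′ to 3′ on the gene's strand, with CpG dinucleotides in capitals. Utf1 (chr7:139943606-139943855, plus strand) has 14, Pou5f1 (chr17:35505782-35506031, plus strand) 8 and Sycp3 (chr10:88459337-88459586, plus strand) 12, and these 3 genes fell. Lix1 (chr17:17402436-17402685, plus strand) has 2, Flrt3 (chr2:140671477-140671726, minus strand) 5 and Wnt1 (chr15:98789607-98789856, plus strand) 23, and these 3 rose.
Utf1: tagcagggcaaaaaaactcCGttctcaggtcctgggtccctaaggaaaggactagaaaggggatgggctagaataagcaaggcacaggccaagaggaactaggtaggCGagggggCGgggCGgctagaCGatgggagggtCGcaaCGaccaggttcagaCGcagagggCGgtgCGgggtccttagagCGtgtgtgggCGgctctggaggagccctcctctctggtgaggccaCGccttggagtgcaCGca
Pou5f1: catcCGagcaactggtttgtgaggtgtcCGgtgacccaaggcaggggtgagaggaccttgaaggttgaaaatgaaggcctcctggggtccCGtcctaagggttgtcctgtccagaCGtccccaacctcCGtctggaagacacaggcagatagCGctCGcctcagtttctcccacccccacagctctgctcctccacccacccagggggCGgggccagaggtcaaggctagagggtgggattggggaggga
Sycp3: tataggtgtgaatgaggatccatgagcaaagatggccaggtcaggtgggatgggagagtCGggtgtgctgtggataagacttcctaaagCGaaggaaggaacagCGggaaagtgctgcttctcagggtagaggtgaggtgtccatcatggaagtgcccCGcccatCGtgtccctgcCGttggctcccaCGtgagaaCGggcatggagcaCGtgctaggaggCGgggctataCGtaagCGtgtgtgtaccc
Lix1: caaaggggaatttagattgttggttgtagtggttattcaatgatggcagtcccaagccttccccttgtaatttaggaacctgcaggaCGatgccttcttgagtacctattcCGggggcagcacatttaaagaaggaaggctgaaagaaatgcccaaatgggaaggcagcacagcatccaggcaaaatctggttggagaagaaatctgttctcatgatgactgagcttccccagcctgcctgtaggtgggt
Flrt3: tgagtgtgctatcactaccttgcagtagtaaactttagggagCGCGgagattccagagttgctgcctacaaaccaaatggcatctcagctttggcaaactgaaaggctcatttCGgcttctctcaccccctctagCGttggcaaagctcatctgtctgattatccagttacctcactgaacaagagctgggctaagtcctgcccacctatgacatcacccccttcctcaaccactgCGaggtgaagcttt
Wnt1: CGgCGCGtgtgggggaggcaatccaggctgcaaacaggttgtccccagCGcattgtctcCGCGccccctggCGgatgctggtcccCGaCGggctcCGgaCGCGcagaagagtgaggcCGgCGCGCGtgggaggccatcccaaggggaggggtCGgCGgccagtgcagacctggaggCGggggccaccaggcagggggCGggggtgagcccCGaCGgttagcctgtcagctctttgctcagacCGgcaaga
Over the 300 bases from 250 before to 50 after the start, 8507 of the 10636 tested genes had an entry, with a median of 22 CpG dinucleotides, and 73.6% were CpG-rich (observed over expected at least 0.6 and GC at least 50%). Of risers of at least 8-fold, 47 of 60 had an entry, with a median of 14 and 48.9% CpG-rich. Of fallers of at least 8-fold, 53 of 66 had one, with a median of 13 and 47.2% CpG-rich. The large changes in both directions thus had fewer CpG dinucleotides at their starts than the tested genes as a whole, while all risers (median 21) and all fallers (median 21) were close to them. This is a description with no test, and no methylation was measured in these libraries.

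Some genes crossed from silence to expression or back. Defined without a test as under 1 FPKM in both libraries of one stage and at least 5 FPKM in both of the other, 72 genes were switched on in DKO heads (0.319% of the table's genes) and 74 were switched off (0.328%). Without the first epiblast 160 were on and 124 off. Among those on were Flrt3, Lix1, Hes3 and the factors of brain regions below, and also Tal2, a helix-loop-helix factor of the midbrain, with 28.5 and 30.4 FPKM in DKO heads and 0.892 and 0.178 FPKM in DKO epiblasts. Cldn10, a tight junction protein, had 21.7 and 14.7 FPKM in DKO heads and 0.352 and 0.258 FPKM in DKO epiblasts, and Nkx2-9, a homeobox factor of the ventral neural tube, had 11.7 and 17.3 FPKM in DKO heads and 0.319 and 0 FPKM in DKO epiblasts. Each was under 1 FPKM in the epiblasts and above 10 FPKM in both heads. Among those off, Nanog had 0.406 and 0.415 FPKM in DKO heads and 26.2 and 38.9 FPKM in DKO epiblasts (log2 change -4.55, SE 0.24, adjusted p = 0.0032). Bcl11a, a zinc finger repressor, had 0.1 and 0.00905 FPKM in DKO heads and 10.1 and 11.3 FPKM in DKO epiblasts, and Tdh, a threonine dehydrogenase of mouse pluripotent cells, had 0.341 and 0.198 FPKM in DKO heads and 18.7 and 10.9 FPKM in DKO epiblasts. Pla2g1b, a secreted phospholipase, had 0.258 and 0.741 FPKM in DKO heads and 16.8 and 32.3 FPKM in DKO epiblasts. All 4 were under 1 FPKM in both heads. Tal2, Cldn10, Nkx2-9 and these fallers other than Nanog were chosen after their values were seen.

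As a group, 23 genes of formative and primed pluripotency were tested, and 17 fell and 1 rose, with a median log2 change of -2.75. This and the list counts that follow stand beside 19.1% higher and 23.9% lower among all tested genes. The riser was Lin28b, which blocks let-7 maturation and had 33.3 and 32.7 FPKM in DKO heads and 19.5 and 12.7 FPKM in DKO epiblasts (log2 change 1.02, SE 0.22, adjusted p = 0.027). Otx2, a factor of both the epiblast and the anterior neural plate, fell only slightly, with 82.7 and 82.4 FPKM in DKO heads and 139 and 138 FPKM in DKO epiblasts (log2 change -0.74, SE 0.07, adjusted p = 0.0045). Pou3f1 had 1.33 and 1.55 FPKM in DKO heads and 11.8 and 12.6 FPKM in DKO epiblasts, so both heads were below both epiblasts (log2 change -2.44, SE 0.17, adjusted p = 0.0038). Sox2, shared by pluripotent and neural cells, did not pass, with 6.79 and 7.93 FPKM in DKO heads and 5.46 and 5.33 FPKM in DKO epiblasts. Slc7a3, an amino acid carrier, had 8.15 and 9.77 FPKM in DKO heads and 184 and 7.94 FPKM in DKO epiblasts, and its epiblasts enclosed the heads. Of 17 naive pluripotency genes 8 were tested, of which 4 fell and 2 rose (1 without the first epiblast). Fgf4, a ligand made by pluripotent cells, had 0.108 and 0.0525 FPKM in DKO heads and 8.87 and 5.22 FPKM in DKO epiblasts, and Dppa3, known in germ cells and the zygote, had 0.121 and 0.484 FPKM in DKO heads and 6.44 and 3.93 FPKM in DKO epiblasts. Both were low in heads. Tfap2c had 4.45 and 3.73 FPKM in DKO heads and 0.357 and 0.877 FPKM in DKO epiblasts and Gbx2, which marks the anterior hindbrain as well, had 2.54 and 4.9 FPKM in DKO heads and 0.56 and 1.19 FPKM in DKO epiblasts, and both rose.

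Ligands and antagonists of Nodal, the signal that patterns the epiblast, were low in DKO heads. Nodal itself had 0.0228 and 0 FPKM in DKO heads and 7.04 and 4.6 FPKM in DKO epiblasts, with no overlap (log2 change -2.73, SE 0.23, adjusted p = 0.0044). Its antagonist Lefty2 had 0 and 0.0187 FPKM in DKO heads and 2.82 and 2.49 FPKM in DKO epiblasts (log2 change -1.86, SE 0.15, adjusted p = 0.0043), and the related ligand Gdf3 had 0.133 and 0 FPKM in DKO heads and 6.6 and 5.77 FPKM in DKO epiblasts (log2 change -2.75, SE 0.18, adjusted p = 0.0035). These 3 genes were expressed at only a few FPKM in DKO epiblasts, and at under 0.2 FPKM in heads. The nuclear partner of Smads, Foxh1, had 9.17 and 13.6 FPKM in DKO heads and 107 and 81.2 FPKM in DKO epiblasts (log2 change -2.95, SE 0.24, adjusted p = 0.0043). The receptor Acvr2a moved the other way, with 6.74 and 5.05 FPKM in DKO heads and 1.46 and 0.748 FPKM in DKO epiblasts (log2 change 1.72, SE 0.26, adjusted p = 0.012). Smad3 and Smad4 also rose, at log2 change 0.80, SE 0.20, adjusted p = 0.037 and log2 change 0.71, SE 0.17, adjusted p = 0.033. In all, 5 of 12 tested Nodal genes fell and 4 rose.

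Of the Fgf pathway, 8 of 20 tested genes fell and 7 rose. Those that fell, besides Fgf4 and Fgf5, are mostly known as targets or inhibitors of Fgf signalling. Etv5, a transcription factor target, had 16 and 17.4 FPKM in DKO heads and 131 and 139 FPKM in DKO epiblasts (log2 change -2.94, SE 0.10, adjusted p = 0.0019), and Etv4 had 0.572 and 0.484 FPKM in DKO heads and 5.95 and 10.8 FPKM in DKO epiblasts (log2 change -2.57, SE 0.31, adjusted p = 0.0072). Spry4, an inhibitor, had 2.07 and 2.83 FPKM in DKO heads and 16.5 and 19.2 FPKM in DKO epiblasts, and Dusp6, a phosphatase that acts on Erk, had 51.1 and 54.2 FPKM in DKO heads and 88.1 and 102 FPKM in DKO epiblasts. The fall of Dusp6 was small (log2 change -0.84, SE 0.11, adjusted p = 0.008) and that of Spry4 larger (log2 change -2.45, SE 0.20, adjusted p = 0.0043). Ligands of the patterned head rose: Fgf8 had 17.3 and 20 FPKM in DKO heads and 9.36 and 7.26 FPKM in DKO epiblasts and Fgf15 had 40.7 and 62 FPKM in DKO heads and 19.6 and 6.03 FPKM in DKO epiblasts. The 2 epiblasts differed 3-fold for Fgf15, with both heads above them. Fgf10 had 4.07 and 3.33 FPKM in DKO heads and 0.0379 and 0.0748 FPKM in DKO epiblasts, Fgf17 had 4.3 and 5.03 FPKM in DKO heads and 0.964 and 0.648 FPKM in DKO epiblasts, and the receptor Fgfr2 had 6.37 and 7.36 FPKM in DKO heads and 0.578 and 0.123 FPKM in DKO epiblasts. The receptor Fgfr1 did not pass, with 12.2 and 14.3 FPKM in DKO heads and 13.4 and 3.42 FPKM in DKO epiblasts.

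Genes of the primitive streak, where mesoderm and endoderm form, were mixed. Of 12 tested, 7 rose (58.3%) and 2 fell (16.7%), and without the first epiblast 6 rose and 4 fell. Eomes had 0.0255 and 0.0598 FPKM in DKO heads and 11.8 and 14.8 FPKM in DKO epiblasts (log2 change -3.77, SE 0.19, adjusted p = 0.0032) and Mixl1 had 0.0852 and 0.0214 FPKM in DKO heads and 1.23 and 1.88 FPKM in DKO epiblasts (log2 change -1.27, SE 0.19, adjusted p = 0.011), the 2 fallers. The risers included Cyp26a1, which degrades retinoic acid, with 13.1 and 5.46 FPKM in DKO heads and 0.105 and 0.279 FPKM in DKO epiblasts, and Foxa2, a factor of the floor plate and foregut, with 2.72 and 4.01 FPKM in DKO heads and 0.403 and 0.636 FPKM in DKO epiblasts. Sp5, a Wnt target, had 2.73 and 2.79 FPKM in DKO heads and 0 and 0.442 FPKM in DKO epiblasts. Heads and epiblasts did not overlap at any of these 5 genes. Each was under 1 FPKM in both libraries of its lower stage, so the filter allowed only the direction seen.

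Of 17 forebrain and eye field genes tested, 16 rose and 1, Otx2, fell, with a median log2 change of 2.35, and 7 were switched on. Pax6, a homeobox factor of eye and forebrain, had 22.9 and 24.2 FPKM in DKO heads and 0.168 and 0.828 FPKM in DKO epiblasts (log2 change 4.07, SE 0.27, adjusted p = 0.0036). Fezf1 had 14 and 26.2 FPKM in DKO heads and 0.0742 and 0.276 FPKM in DKO epiblasts, higher in the second head (log2 change 4.11, SE 0.34, adjusted p = 0.0044), and Rax, needed for the eye field, had 5.07 and 14.9 FPKM in DKO heads and 0.926 and 0.906 FPKM in DKO epiblasts (log2 change 2.36, SE 0.49, adjusted p = 0.024). Both are anterior factors, and Rax differed almost 3-fold between heads. Otx1 had 26.6 and 34.5 FPKM in DKO heads and 2.23 and 2.2 FPKM in DKO epiblasts (log2 change 3.29, SE 0.19, adjusted p = 0.0033). Six3 had 3.57 and 6.01 FPKM in DKO heads and 0.253 and 0.393 FPKM in DKO epiblasts, Lhx2 had 5.43 and 7.13 FPKM in DKO heads and 0.443 and 0.402 FPKM in DKO epiblasts and Lhx5 had 4.99 and 7.39 FPKM in DKO heads and 0.363 and 0.915 FPKM in DKO epiblasts. All 3 were at under 1 FPKM in each epiblast.

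All 15 tested midbrain and hindbrain genes rose (median log2 change 2.09), and 5 of them were switched on. Wnt1, the ligand of the midbrain-hindbrain boundary, had 6.82 and 9.41 FPKM in DKO heads and was listed at 0 in both DKO epiblasts (adjusted p = 0.0036). Pax8 had 8.01 and 8.85 FPKM in DKO heads and 0.329 and 0.409 FPKM in DKO epiblasts (log2 change 2.78, SE 0.17, adjusted p = 0.0033) and Pax3, of the dorsal neural tube and crest, had 7.17 and 7.03 FPKM in DKO heads and 0.279 and 0.156 FPKM in DKO epiblasts (log2 change 2.74, SE 0.17, adjusted p = 0.0033). En1 had 3.65 and 5.48 FPKM in DKO heads and 0 and 0.146 FPKM in DKO epiblasts, and Irx3 had 1.68 and 2.42 FPKM in DKO heads and 0.187 and 0.332 FPKM in DKO epiblasts. These factors were near 0 in epiblasts, and En1 and Irx3 remained at a few FPKM in heads. Meis2 had 10.7 and 8.32 FPKM in DKO heads and 0.489 and 0.717 FPKM in DKO epiblasts (log2 change 2.70, SE 0.21, adjusted p = 0.004) and Epha4, an ephrin receptor of hindbrain segments, had 6.71 and 6.52 FPKM in DKO heads and 0.177 and 0.318 FPKM in DKO epiblasts (log2 change 2.61, SE 0.17, adjusted p = 0.0035). No Hox gene of 39 in the table reached the level needed for a test, and Hoxa2 had 0.543 and 0.86 FPKM in DKO heads and 0.0477 and 0 FPKM in DKO epiblasts. A gene that passed the filter only through its level in heads had to be higher there, and a gene that passed only through epiblasts had to be lower in heads. The counts of this and the other lists are therefore a description and not a measure of how uniformly a list's genes responded.

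**Figure D4:**
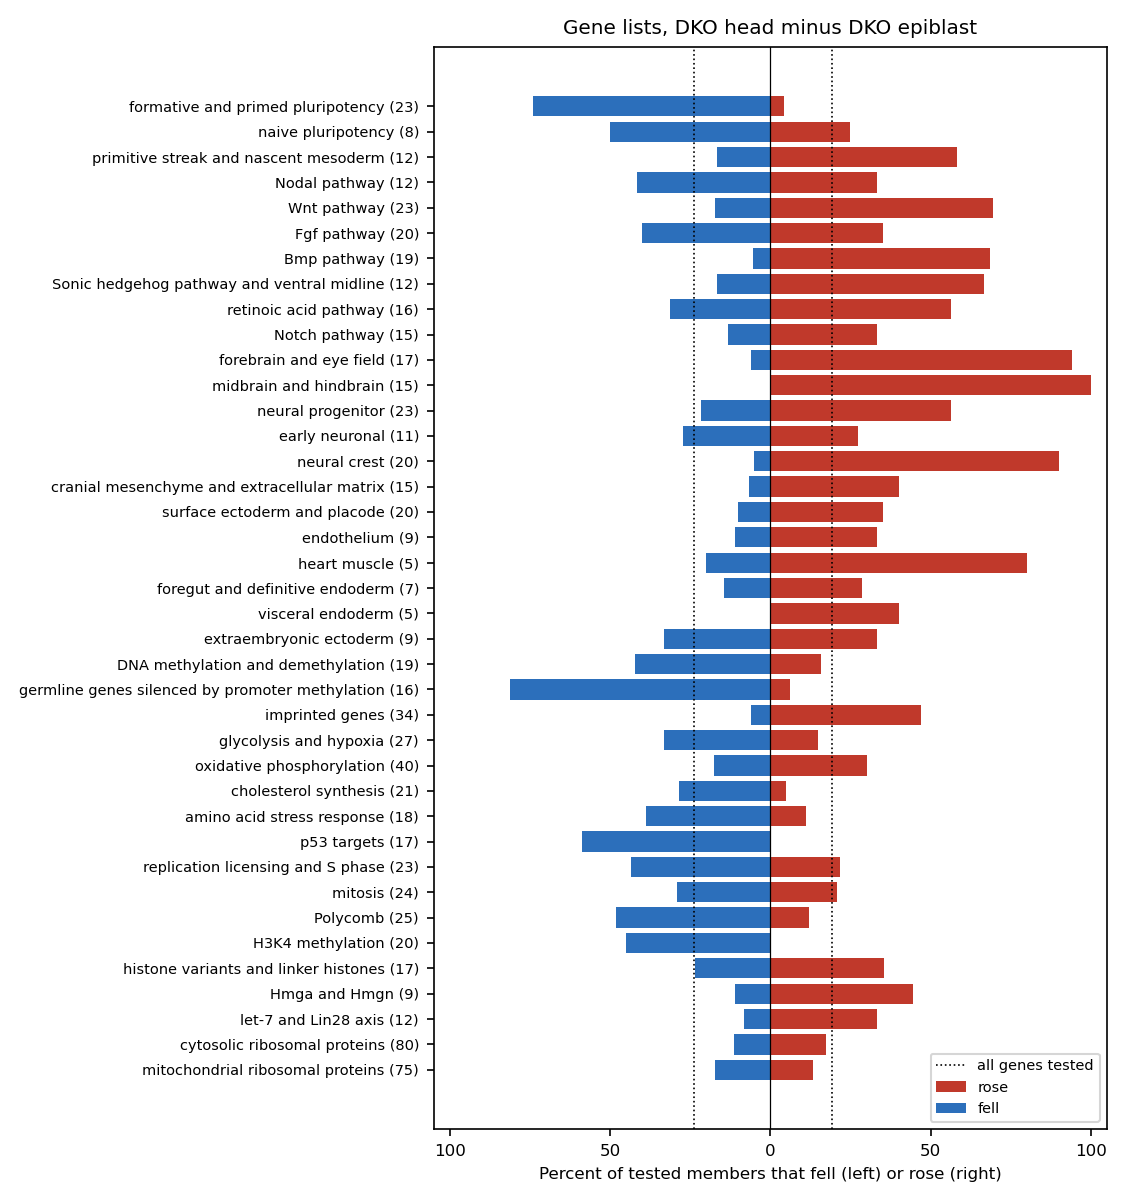
For each gene list, the number of tested members that rose and fell between DKO epiblast and DKO head, as a percentage of the members tested. Midbrain and hindbrain (15 of 15 rose), forebrain and eye field (16 of 17) and neural crest (18 of 20) stand at one end, and primed pluripotency (17 of 23 fell) and germline genes (13 of 16 fell) at the other. Members that passed the filter through heads only, or through epiblasts only, had their direction fixed by it, so the shares are a description.

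Neural progenitor genes rose in 13 and fell in 5 of 23 cases (median 1.68). Cdh2, the N-cadherin of neural epithelium, had 23.5 and 21.7 FPKM in DKO heads and 0.551 and 0.149 FPKM in DKO epiblasts (log2 change 4.14, SE 0.22, adjusted p = 0.0032), and Rfx4 had 8.97 and 10.9 FPKM in DKO heads and 0 and 0.161 FPKM in DKO epiblasts (log2 change 3.34, SE 0.20, adjusted p = 0.0033). Fabp7, a fatty acid carrier of neural progenitors, had 21.5 and 15.4 FPKM in DKO heads and 1.16 and 1.31 FPKM in DKO epiblasts (log2 change 3.10, SE 0.23, adjusted p = 0.004). Sox1 had 2.14 and 2.73 FPKM in DKO heads and 0.0286 and 0 FPKM in DKO epiblasts and Sox9 had 10.4 and 14 FPKM in DKO heads and 1.59 and 1.67 FPKM in DKO epiblasts, both higher in each head. Msi1, an RNA-binding protein used as a neural progenitor marker, fell, with 0.39 and 1.06 FPKM in DKO heads and 12.2 and 13.7 FPKM in DKO epiblasts (log2 change -3.04, SE 0.26, adjusted p = 0.0044). Ccnd1 and Ccnd2, cyclins of the same family, went opposite ways. Ccnd1 had 22.7 and 24 FPKM in DKO heads and 36 and 45.6 FPKM in DKO epiblasts (log2 change -0.77, SE 0.15, adjusted p = 0.02), while Ccnd2 had 91.6 and 79.9 FPKM in DKO heads and 7.31 and 13.8 FPKM in DKO epiblasts (log2 change 2.97, SE 0.30, adjusted p = 0.0054). Of early neuronal genes 3 of 11 rose and 3 fell (27.3% each), near the 19.1% and 23.9% of all tested genes. Tubb3, a neuronal tubulin, had 36 and 39.9 FPKM in DKO heads and 6.89 and 10.4 FPKM in DKO epiblasts (log2 change 2.04, SE 0.22, adjusted p = 0.0059). The neurofilament genes fell: Nefl had 1.85 and 2.91 FPKM in DKO heads and 47.6 and 63.3 FPKM in DKO epiblasts (log2 change -4.07, SE 0.24, adjusted p = 0.0033), Ina had 4.44 and 6.72 FPKM in DKO heads and 34.5 and 36.7 FPKM in DKO epiblasts (log2 change -2.50, SE 0.21, adjusted p = 0.0044), and Nefm had 0.329 and 0.529 FPKM in DKO heads and 2.09 and 4.91 FPKM in DKO epiblasts (log2 change -1.58, SE 0.36, adjusted p = 0.028). Without the second epiblast 5 early neuronal genes rose, and without the first 2.

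Of 20 neural crest genes tested, 18 rose and 1 fell (median 2.50). Members under 1 FPKM in both epiblasts, such as Sox10 and Cdh6, passed the filter through heads only and had to be higher there. Sox10, a factor of migrating crest, had 5.68 and 5.59 FPKM in DKO heads and 0.035 and 0 FPKM in DKO epiblasts (log2 change 2.71, SE 0.16, adjusted p = 0.0033), and Tfap2b was listed at 0 in both epiblasts and had 5.22 and 4.84 FPKM in DKO heads. The cadherins Cdh6, with 15.8 and 11.5 FPKM in DKO heads and 0.0357 and 0 FPKM in DKO epiblasts, and Cdh11, with 18.6 and 13.9 FPKM in DKO heads and 0.0763 and 0.133 FPKM in DKO epiblasts, rose steeply (log2 change 3.83, SE 0.22, adjusted p = 0.0033 and log2 change 3.95, SE 0.21, adjusted p = 0.0032). Msx2 had 22.9 and 17.2 FPKM in DKO heads and 0.549 and 1.65 FPKM in DKO epiblasts and Ets1 had 12.1 and 9.57 FPKM in DKO heads and 0.915 and 0.695 FPKM in DKO epiblasts. All these were higher in each head than in each epiblast. Foxd3, which is made in both epiblast and crest, fell, with 0.592 and 0.733 FPKM in DKO heads and 1.79 and 2.66 FPKM in DKO epiblasts (log2 change -0.95, SE 0.21, adjusted p = 0.026). Twist1 did not pass, with 2.04 and 1 FPKM in DKO heads and 0.388 and 0.399 FPKM in DKO epiblasts.

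Signals of the head were read by role. Of 23 Wnt genes 16 rose and 4 fell. Within the list the secreted antagonists Frzb and Dkk1 had the largest rises. Frzb had 31.8 and 30.8 FPKM in DKO heads and 0.904 and 0.405 FPKM in DKO epiblasts (log2 change 4.30, SE 0.22, adjusted p = 0.0032), and Dkk1 had 16.5 and 21.7 FPKM in DKO heads and 0.0777 and 0 FPKM in DKO epiblasts (log2 change 4.26, SE 0.21, adjusted p = 0.0032). Frzb and Dkk1 were under 1 FPKM in both epiblasts. Among receptors, Fzd3 had 19.4 and 17.9 FPKM in DKO heads and 2.93 and 0.99 FPKM in DKO epiblasts (log2 change 2.81, SE 0.37, adjusted p = 0.0084). Nkd1, an inducible inhibitor of the pathway, had 10.2 and 11.7 FPKM in DKO heads and 0.653 and 0.893 FPKM in DKO epiblasts (log2 change 2.76, SE 0.19, adjusted p = 0.0036). The nuclear factors of the Tcf family fell, with Lef1 at 13.2 and 14.2 FPKM in DKO heads and 33.8 and 37.5 FPKM in DKO epiblasts (log2 change -1.32, SE 0.12, adjusted p = 0.0048), and Tcf7l1 at 5.08 and 6.41 FPKM in DKO heads and 20.1 and 21.2 FPKM in DKO epiblasts (log2 change -1.69, SE 0.17, adjusted p = 0.0052). Tcf7 fell as well (log2 change -1.12, SE 0.16, adjusted p = 0.0096), and Tcf7l2 rose (log2 change 0.84, SE 0.21, adjusted p = 0.035).

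Of 19 Bmp genes 13 rose and 1 fell. Among ligands, Bmp5 was listed at 0 in both epiblasts and had 10.4 and 8.15 FPKM in DKO heads, and Bmp7 had 8.37 and 5.75 FPKM in DKO heads and 0.35 and 0.289 FPKM in DKO epiblasts (log2 change 2.59, SE 0.23, adjusted p = 0.0045). The receptor Bmpr1a had 20.6 and 18.7 FPKM in DKO heads and 5.38 and 3.51 FPKM in DKO epiblasts (log2 change 1.94, SE 0.22, adjusted p = 0.0068). Targets rose too, with Id3 at 781 and 676 FPKM in DKO heads and 332 and 432 FPKM in DKO epiblasts (log2 change 0.94, SE 0.15, adjusted p = 0.013). Id1, another target, did not pass, with 136 and 102 FPKM in DKO heads and 2.27 and 42.5 FPKM in DKO epiblasts, which differed widely. The 1 faller was Smad7, an inhibitor of the pathway, with 0.301 and 0.3 FPKM in DKO heads and 2.66 and 5.89 FPKM in DKO epiblasts (log2 change -1.95, SE 0.34, adjusted p = 0.016). Of 12 Sonic hedgehog genes 8 rose and 2 fell. Gli3, a transcription factor of the pathway that acts mainly as a repressor, had 17.4 and 16.1 FPKM in DKO heads and 2.68 and 2.61 FPKM in DKO epiblasts (log2 change 2.28, SE 0.16, adjusted p = 0.0037), and the surface proteins Gas1, with 12.9 and 13.2 FPKM in DKO heads and 2.17 and 2.17 FPKM in DKO epiblasts, and Boc, with 2.66 and 3.5 FPKM in DKO heads and 0.262 and 0.103 FPKM in DKO epiblasts, were also higher in both heads. Shh itself was under 0.5 FPKM in all 4 libraries and was not tested.

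Of 16 retinoic acid genes 9 rose and 5 fell. Aldh1a2, which makes retinoic acid, had 11.4 and 14.1 FPKM in DKO heads and 0 and 0.218 FPKM in DKO epiblasts (log2 change 3.63, SE 0.21, adjusted p = 0.0033), and Rdh10, which makes its precursor, had 10.1 and 9.45 FPKM in DKO heads and 0.809 and 0.753 FPKM in DKO epiblasts (log2 change 2.60, SE 0.17, adjusted p = 0.0035). Of the nuclear receptors, Rarg had 2.71 and 4.08 FPKM in DKO heads and 34.5 and 44.4 FPKM in DKO epiblasts (log2 change -3.21, SE 0.23, adjusted p = 0.004) and Rara had 1.81 and 2.45 FPKM in DKO heads and 9.64 and 11.1 FPKM in DKO epiblasts (log2 change -1.87, SE 0.20, adjusted p = 0.006), both lower in heads. Rarb had 1.92 and 1.47 FPKM in DKO heads and 0 and 0.182 FPKM in DKO epiblasts, higher in heads (log2 change 1.31, SE 0.18, adjusted p = 0.0096). In the Notch list 5 of 15 rose and 2 fell, and 8 rose without the second epiblast. The ligand Jag1 had 12 and 10.7 FPKM in DKO heads and 0.544 and 0.433 FPKM in DKO epiblasts (log2 change 3.05, SE 0.18, adjusted p = 0.0033), and Dll1, listed at 0 in both epiblasts, had 3.58 and 3.07 FPKM in DKO heads. The target Hes1 had 47.5 and 57.2 FPKM in DKO heads and 14.2 and 17.2 FPKM in DKO epiblasts (log2 change 1.68, SE 0.16, adjusted p = 0.0049), and Hes6, which counteracts Hes1, fell with 12 and 14.3 FPKM in DKO heads and 70.1 and 82 FPKM in DKO epiblasts (log2 change -2.45, SE 0.15, adjusted p = 0.0033).

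Of cranial mesenchyme and matrix genes, 6 of 15 rose and 1 fell. Prrx2 had 5.57 and 4.87 FPKM in DKO heads and 0.188 and 0 FPKM in DKO epiblasts (log2 change 2.51, SE 0.18, adjusted p = 0.004), and the collagen Col2a1 had 6.08 and 4.2 FPKM in DKO heads and 0.771 and 0.325 FPKM in DKO epiblasts (log2 change 1.99, SE 0.26, adjusted p = 0.0085). Lum, a matrix proteoglycan, had 8.14 and 1.45 FPKM in DKO heads and 0 and 0 FPKM in DKO epiblasts and did not pass, with the first head far above the second. In surface ectoderm 7 of 20 rose and 2 fell, and 5 fell without the second epiblast. Krt8, a keratin of simple epithelia, had 41.7 and 40.6 FPKM in DKO heads and 10.7 and 9.5 FPKM in DKO epiblasts (log2 change 1.93, SE 0.12, adjusted p = 0.0035). Epcam had 59.8 and 20.4 FPKM in DKO heads and 229 and 90.1 FPKM in DKO epiblasts and Cdh1, the E-cadherin of epithelia, had 6.96 and 2.32 FPKM in DKO heads and 81.6 and 7.04 FPKM in DKO epiblasts, both lower in heads as means but not called, with spread among epiblasts and among heads. Of 5 heart muscle genes tested 4 rose, at low levels in DKO heads. Acta2 had 2.12 and 2.59 FPKM in DKO heads and 0 and 0.099 FPKM in DKO epiblasts, and 5.42 and 15.3 FPKM in WT heads and 0, 0 and 0 FPKM in WT epiblasts. Heart muscle markers summed to 5.21 to 8.37 FPKM in DKO heads and 36.1 to 205 FPKM in WT heads, and the part of such cells in the results was not tested.

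Genes that place DNA methylation fell in DKO heads. Dnmt3b, a methyltransferase that sets new methylation, had 37.7 and 46.4 FPKM in DKO heads and 1196 and 1196 FPKM in DKO epiblasts (log2 change -4.80, SE 0.11, adjusted p = 0.001). Dnmt3a had 4.99 and 5.22 FPKM in DKO heads and 73.6 and 78.4 FPKM in DKO epiblasts (log2 change -3.66, SE 0.12, adjusted p = 0.0019), and their partner Dnmt3l had 0.0338 and 0.0354 FPKM in DKO heads and 5.65 and 9.16 FPKM in DKO epiblasts (log2 change -2.99, SE 0.26, adjusted p = 0.0044). The maintenance enzyme Dnmt1 had 11.2 and 12 FPKM in DKO heads and 24.5 and 26.4 FPKM in DKO epiblasts, a smaller fall (log2 change -1.06, SE 0.13, adjusted p = 0.0071), and Uhrf1, its partner, had 55.9 and 62.2 FPKM in DKO heads and 88.7 and 98.5 FPKM in DKO epiblasts (log2 change -0.66, SE 0.10, adjusted p = 0.012). In the list 8 of 19 fell and 3 rose. Gadd45a had 11.5 and 14.2 FPKM in DKO heads and 1.88 and 2.25 FPKM in DKO epiblasts and rose (log2 change 2.17, SE 0.20, adjusted p = 0.0046). Of 37 germline genes whose promoters are known to be silenced by methylation in somatic cells, 16 were tested, and 13 fell (median -2.03) and 1 rose. Members that reached 1 FPKM in epiblasts only had to be lower in heads, so this count is a description. Sycp3, of the meiotic chromosome axis, had 0 and 0.0631 FPKM in DKO heads and 14 and 20.7 FPKM in DKO epiblasts (log2 change -4.13, SE 0.25, adjusted p = 0.0033). Cyct, the testis cytochrome c, had 0.561 and 1.05 FPKM in DKO heads and 29.6 and 26.5 FPKM in DKO epiblasts, and Ddx4, a helicase of germ cells, had 0.235 and 0.483 FPKM in DKO heads and 6.48 and 12.9 FPKM in DKO epiblasts. Mael was listed at 0 in both DKO heads and had 2.68 and 3.78 FPKM in DKO epiblasts. Of these 4, Cyct alone exceeded 1 FPKM in a DKO head. Ddx25 was the riser, with 25.7 and 27.9 FPKM in DKO heads and 7.19 and 8.23 FPKM in DKO epiblasts (log2 change 1.68, SE 0.14, adjusted p = 0.0044).

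Of 34 imprinted genes 16 rose and 2 fell. Besides Mest and Peg12, Sgce, a sarcoglycan, had 12.5 and 9.73 FPKM in DKO heads and 0.277 and 0.297 FPKM in DKO epiblasts (log2 change 3.22, SE 0.20, adjusted p = 0.0033), and Ndn had 113 and 111 FPKM in DKO heads and 18.2 and 16.5 FPKM in DKO epiblasts (log2 change 2.63, SE 0.10, adjusted p = 0.0023). Igf2, a growth factor expressed from the paternal allele, had 10.4 and 5.61 FPKM in DKO heads and 0.718 and 1.26 FPKM in DKO epiblasts (log2 change 2.14, SE 0.34, adjusted p = 0.013), and Grb10, an adaptor that restrains growth, had 24.9 and 20 FPKM in DKO heads and 7.07 and 8.4 FPKM in DKO epiblasts (log2 change 1.42, SE 0.18, adjusted p = 0.008). Snrpn fell, with 124 and 149 FPKM in DKO heads and 395 and 378 FPKM in DKO epiblasts (log2 change -1.50, SE 0.10, adjusted p = 0.0037). H19 had 11.6 and 5.84 FPKM in DKO heads and 1.18 and 3.2 FPKM in DKO epiblasts, and its adjusted p of 0.05 did not pass. Allele of origin was not resolved in these values.

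Chromatin regulators changed in part. Of 25 Polycomb genes 12 fell and 3 rose. Cbx7, a subunit of Polycomb repressive complexes, had 0.737 and 1.18 FPKM in DKO heads and 35.8 and 38 FPKM in DKO epiblasts (log2 change -4.28, SE 0.19, adjusted p = 0.0031), and Phc1 had 9.72 and 10.3 FPKM in DKO heads and 90.2 and 79 FPKM in DKO epiblasts (log2 change -2.95, SE 0.12, adjusted p = 0.0025). Phc2, a homolog of Phc1, rose with 13.5 and 12.9 FPKM in DKO heads and 1.51 and 2.36 FPKM in DKO epiblasts (log2 change 2.29, SE 0.21, adjusted p = 0.0048), as did Bmi1 with 8.83 and 8.45 FPKM in DKO heads and 2.31 and 2.37 FPKM in DKO epiblasts (log2 change 1.53, SE 0.16, adjusted p = 0.006). Ezh2, the methyltransferase of the other Polycomb complex, did not pass, with 56.2 and 69.9 FPKM in DKO heads and 47 and 49 FPKM in DKO epiblasts. In the list of H3K4 methylation 9 of 20 fell and the others did not pass. Kdm5b, a demethylase, had 23.3 and 27.9 FPKM in DKO heads and 85.2 and 75.4 FPKM in DKO epiblasts (log2 change -1.61, SE 0.13, adjusted p = 0.0043). Of the histone variants, macroH2A rose: H2afy had 69.5 and 73.7 FPKM in DKO heads and 5.12 and 5.43 FPKM in DKO epiblasts (log2 change 3.53, SE 0.12, adjusted p = 0.0019), and H2afy2 had 61 and 60.3 FPKM in DKO heads and 17.6 and 19.5 FPKM in DKO epiblasts (log2 change 1.66, SE 0.11, adjusted p = 0.0035). Hmga2, a chromatin protein of embryonic cells, had 41 and 40 FPKM in DKO heads and 6.19 and 1.98 FPKM in DKO epiblasts (log2 change 3.17, SE 0.45, adjusted p = 0.0099), and Hmga1 had 37.3 and 60.9 FPKM in DKO heads and 195 and 167 FPKM in DKO epiblasts (log2 change -1.90, SE 0.25, adjusted p = 0.0088), in opposite directions.

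Targets of p53 fell in 10 of 17 cases (median -0.90), and the other 7 did not pass. Pmaip1, known as Noxa, which promotes apoptosis, had 3.04 and 5.34 FPKM in DKO heads and 72.3 and 55 FPKM in DKO epiblasts (log2 change -3.66, SE 0.28, adjusted p = 0.004), and Phlda3 had 2.37 and 1.24 FPKM in DKO heads and 17.3 and 25.7 FPKM in DKO epiblasts (log2 change -3.01, SE 0.31, adjusted p = 0.0056). Ccng1 had 12.1 and 11.8 FPKM in DKO heads and 38.8 and 36.1 FPKM in DKO epiblasts (log2 change -1.57, SE 0.11, adjusted p = 0.004), and Cdkn1a, a cell cycle inhibitor, did not pass, with 1.71 and 1.69 FPKM in DKO heads and 2.29 and 6.75 FPKM in DKO epiblasts. In glycolysis 9 of 27 fell (33.3%) and 4 rose (14.8%), beside 23.9% and 19.1% of all tested genes, and 7 rose without the first epiblast. Slc2a3, a glucose carrier, had 217 and 163 FPKM in DKO heads and 39.2 and 4.75 FPKM in DKO epiblasts (log2 change 3.63, SE 0.96, adjusted p = 0.041), with the second epiblast at the low end, and Ldhb had 23.4 and 29.2 FPKM in DKO heads and 161 and 148 FPKM in DKO epiblasts (log2 change -2.52, SE 0.13, adjusted p = 0.0032). Ldha, the most abundant gene of the table, was tied at the same FPKM in all 4 DKO libraries, where a rank-based normalization cannot show a change. For cholesterol synthesis 6 of 21 fell and 1 rose, and the balance of this list depended on the epiblast kept. Without the second epiblast 1 rose and 11 fell (median -0.87), and without the first 10 rose and 7 fell (median 0.54). Fdps had 14.7 and 10.7 FPKM in DKO heads and 78.8 and 50.2 FPKM in DKO epiblasts (log2 change -2.23, SE 0.28, adjusted p = 0.0076) and Ebp, the riser, had 13.2 and 10.5 FPKM in DKO heads and 2.26 and 1.5 FPKM in DKO epiblasts (log2 change 2.16, SE 0.23, adjusted p = 0.0059). Of replication genes 10 of 23 fell and 5 rose. Mcm2, a subunit of the replicative helicase, had 104 and 119.8 FPKM in DKO heads and 275 and 300.005 FPKM in DKO epiblasts (log2 change -1.35, SE 0.10, adjusted p = 0.0038), whereas Ccne2, a cyclin of the G1/S transition, had 49.7 and 51.6 FPKM in DKO heads and 14.5 and 16.7 FPKM in DKO epiblasts (log2 change 1.64, SE 0.12, adjusted p = 0.004).

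The WT libraries of the table span the same stages with the enzymes present, but their epiblasts carry the label of the Kmt2b experiment. Over the 10207 genes tested in both courses, Pearson's r between the DKO and WT log2 changes was 0.571 (a description across genes). In WT, 4351 of 10674 tested genes were called (40.8%), with 2208 higher (20.7%) and 2143 lower in heads (20.1%), and 1903 and 2378 were called without the first and the second WT head. Of the DKO risers 997 rose in WT (49.0% of DKO risers and 45.2% of WT risers), and of the DKO fallers 858 fell in WT (33.8% and 40%). Calls in opposite directions numbered 114 genes that rose in DKO and fell in WT and 144 that fell in DKO and rose in WT. Of the DKO switches, 18 genes were also switched on in WT (25.0% of 72 and 42.9% of 42) and 17 off (23.0% of 74 and 34.0% of 50). The 18 include Hes3, Fezf1, Pax6, Rax, Lhx2, Wnt1, Pax3 and Pax8, and the 17 include Eomes, Sycp3, L1td1 and Tdgf1. Pax6, for instance, had 20.7 and 12.6 FPKM in WT heads and 0.144, 0 and 0 FPKM in WT epiblasts, against the DKO values given above.

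The difference between the courses was tested directly by an interaction term (DKO change minus WT change). It passed at 2979 of 11260 genes (26.5%), with 1226 positive (10.9%) and 1753 negative (15.6%). Since the WT epiblasts come from another experiment of the series and 1 DKO epiblast lacks Y-linked RNA, genotype, experiment and library cannot be told apart here. Without the first DKO head 1167 passed, without the second 1640, without the first WT head 1611 and without the second 1676. Leaving out the first DKO epiblast raised the count and leaving out the second lowered it. The numbers of positive and negative interactions were nearer to even in both cases. Among primed pluripotency genes 10 of 23 had a negative interaction, beside 15.6% of all genes tested, and the other 13 did not pass. Pou5f1 had 1.42 and 5.24 FPKM in WT heads and 223, 265 and 238 FPKM in WT epiblasts, and its interaction was -1.95, SE 0.48, adjusted p = 0.021. Utf1 had 1.09 and 2.19 FPKM in WT heads and 263, 309.6 and 252 FPKM in WT epiblasts (interaction -2.12, SE 0.28, adjusted p = 0.0023), and Dnmt3b had 47.6 and 78 FPKM in WT heads and 624, 624 and 624 FPKM in WT epiblasts (interaction -1.47, SE 0.26, adjusted p = 0.0067). For these 3 genes, levels in DKO epiblasts were above those in WT epiblasts, and DKO heads lay below WT heads.

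Of the 12 streak genes tested in the DKO course, 7 had a positive interaction, beside 10.9% of all genes tested for it, and the other 5 did not pass. Genes that reached the filter through WT libraries only, such as Mesp1 below, are not in this count. Mixl1, a homeobox factor of the streak, had 0 and 0.0993 FPKM in WT heads and 239.6, 54.7 and 172 FPKM in WT epiblasts, against the 1 to 2 FPKM of DKO epiblasts (interaction 5.71, SE 0.76, adjusted p = 0.0025). Mesp1, of nascent mesoderm, had 0 and 0 FPKM in DKO heads and 0.3 and 0 FPKM in DKO epiblasts, and 0.0319 and 0 FPKM in WT heads and 28.9, 7.68 and 33.4 FPKM in WT epiblasts (interaction 4.16, SE 0.76, adjusted p = 0.0072). Both were high in WT epiblasts and at under 2 FPKM in DKO epiblasts, and both stages were near 0 for Mesp1 in DKO. Eif2s3y and Ddx3y, both Y-linked, and Xist, of the inactive X chromosome, also passed. The second DKO epiblast and both WT heads had Y-linked RNA near 0. Other lists were also counted over genes tested in the DKO course, beside 10.9% positive and 15.6% negative over all genes. The 17 forebrain genes had 1 positive and 1 negative interaction, the 15 midbrain and hindbrain genes 3 and 2, and the 20 neural crest genes 5 and 1. Of 16 germline genes 1 passed, with a positive sign. Differences were not confined to developmental lists. The 80 cytosolic ribosomal protein genes had 42 positive and 6 negative interactions. In the DKO course 14 of these 80 rose and 9 fell, while in WT 3 of 83 tested rose and 53 fell. The 27 glycolysis genes had 0 positive and 13 negative interactions. For Pax6 the interaction was 0.03, SE 0.38, adjusted p = 0.95, and for Sycp3 0.29, SE 0.28, adjusted p = 0.46. A p above the threshold does not show that the courses are alike, and with 2 or 3 libraries a group the SE was 0.38 for Pax6. Among membrane proteins, Tmem47 had 70.1 and 76.9 FPKM in WT heads and 19.6, 18.5 and 20.4 FPKM in WT epiblasts (interaction 2.50, SE 0.16, adjusted p = 0.00062), with WT epiblasts above DKO epiblasts.

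**Figure D5:**
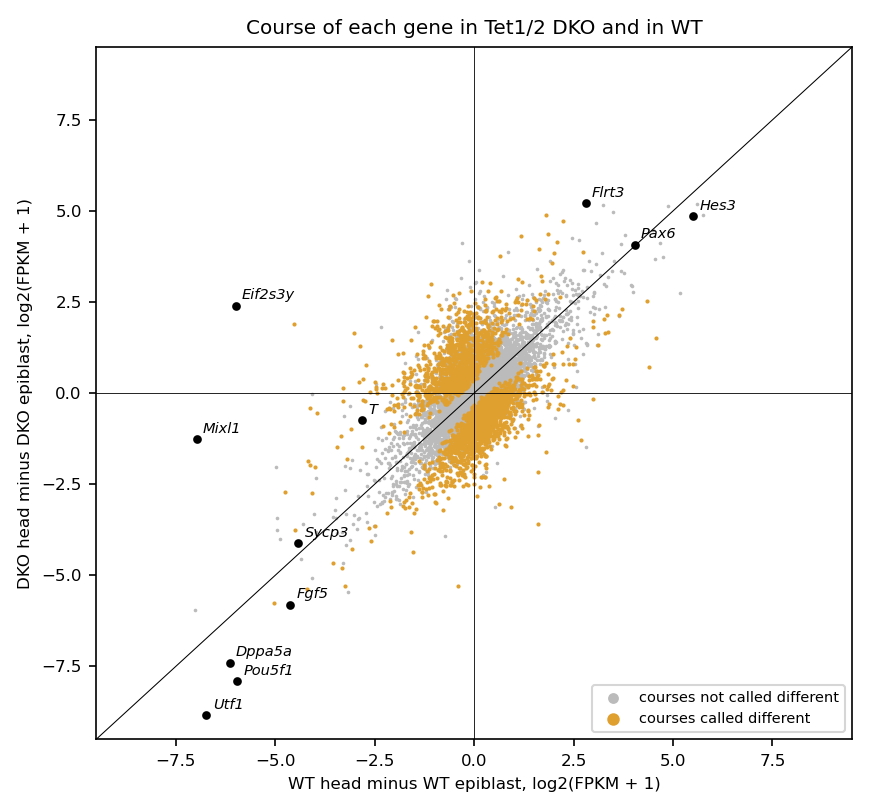
Log2 change of the 10207 genes tested in both courses, DKO head minus DKO epiblast (vertical axis) against WT head minus WT epiblast (horizontal axis), with genes whose interaction passed in orange and equal courses on the diagonal. Pax6 and Sycp3 lie near the diagonal, Utf1, Pou5f1 and Dppa5a below it at the lower left, and Mixl1 and Eif2s3y far above it at the left.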

How the data were processed

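Libraries were made by Smart-seq2 per the labels' protocols, and the submitters' processing notes name TopHat2 2.0.11, Cufflinks 2.0.2 and the mouse build mm9. The deposited values are the authors' FPKM per gene. Their distributions are nearly equal rank by rank in all 9 columns, so the values are relative and the read depth behind each is unknown. How the columns were made equal is not given in the sources used here. From 22593 rows, 7 small RNA genes were left out. Values entered limma 3.58.1 (R 4.3.3) as log2(FPKM + 1), with a mean trend and Benjamini-Hochberg adjustment over all tested genes, two-sided, called at an adjusted p under 0.05. Tested genes had at least 1 FPKM in at least 2 libraries of the fit. A fold change on this scale understates the change of low genes, and a 0 may be a failed estimate.

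The DKO fit used the 4 DKO libraries, the interaction all 9. The rule for naming genes covers the 12 largest rises and falls of genes at 5 FPKM or more in the higher stage and the Tet genes. It also covers leading members of each list (any member of short lists), the most abundant genes and the largest interactions. Predicted and multicopy genes were left out of the rises and falls only. Not every gene under the rule is described: of the most abundant, only Ldha is. Of the largest interactions, Oaz1-ps, Rps28, Hist2h3b, Hist2h3c2, Hist1h2ak and Myl7 are not described. Other genes named were chosen after their values were seen. Members and lists were chosen with earlier results of these data known. Promoter sequences come from RefSeq (GRCm38.p6), whose coordinates are those of that build and not of mm9. Alternatives were other pseudocounts, filters, scaling, samples in the fit, moderation, a replicate block, a fold minimum, other switch levels and each library left out.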

Additional observations from a re-analysis of the deposited data

Results flagged for a closer look

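Of 177 genes named above that were tested, 68 (38.4%) had courses that differed between DKO and WT embryos by the interaction term (limma, adjusted p under 0.05), beside 26.5% of all genes tested. The named genes were chosen in part for large changes or interactions, so this share is no result about them. Values are the DKO change minus the WT change on the log2(FPKM + 1) scale, positive for 32 genes and negative for 36. Genotype, the experiment that the WT epiblasts come from and the Y-linked RNA of each library cannot be told apart in these values.

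Among signalling and streak genes the difference was 5.71 for Mixl1, 4.16 for Mesp1, 4.10 for Cyp26a1, 3.0 for Fgf8, 2.33 for Lefty2, 2.04 for Nodal and 0.75 for Eomes. Nodal had 0.00924 and 0 FPKM in WT heads and 26.7, 27.4 and 25.1 FPKM in WT epiblasts, above the 7.04 and 4.6 FPKM of DKO epiblasts. Fgf8 had 20.3 and 9.79 FPKM in WT heads and 62.9, 60.8 and 46.4 FPKM in WT epiblasts, so it was higher in heads in DKO and lower in heads in WT. For Cyp26a1 the WT heads had 5.79 and 8.42 FPKM and the WT epiblasts 33.2, 7.44 and 16.3 FPKM. Of other signalling genes the difference was 3.13 for Frzb, 3.08 for Wls, 2.12 for Fgf15, 1.84 for Jag1, 1.76 for Acvr2a, 1.69 for Bmpr1a, 1.52 for Rdh10, 1.05 for Gas1 and 0.97 for Hes1. It was below zero for the factors Rarg (-2.43), Hes6 (-1.88), Rara (-1.70), Lef1 (-1.65), Tcf7l1 (-1.41) and Etv5 (-1.22).

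Membrane and adhesion genes that differed were Tmem47 (2.50), Prtg (2.49), Flrt3 (2.41), Cdh11 (2.31), Cdh2 (2.06), Cdh6 (1.84), Sgce (1.54) and Epha4 (1.11), and Sec61b and the sterol enzyme Ebp stood at 0.63 and 2.18. In the second DKO epiblast 32 of 146 Tmem genes and 52 of 157 Slc genes were at least 2-fold below the first, beside 697 of all 10636 tested genes, and its part in these differences was not tested. Neural and crest factors that differed were Ets1 (1.05) and Sox10 (0.85) in the positive direction. In the negative direction they were Msi1 (-3.67), Ina (-2.30), Gbx2 (-1.81), Lhx5 (-1.50), Nefl (-1.48), Sox9 (-1.42) and Irx3 (-1.30). Msi1 had 1.46 and 1.41 FPKM in WT heads and 0.692, 0.852 and 0.229 FPKM in WT epiblasts, so its 12.2 and 13.7 FPKM in DKO epiblasts lay above every WT library.

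Of epiblast genes the difference was -2.12 for Utf1, -2.06 for Pim2, -1.95 for Pou5f1, -1.26 for Pou3f1, -1.18 for Fgf5, -1.18 for Tuba4a, -0.82 for Sox2 and -0.74 for L1td1. DNA methylation genes gave -1.47 for Dnmt3b, -1.37 for Dnmt1, -1.17 for Dnmt3a and -1.07 for Uhrf1. Dnmt1 had 18.6 and 15.3 FPKM in WT heads and 11.4, 15.6 and 13.7 FPKM in WT epiblasts, and the 24.5 and 26.4 FPKM of DKO epiblasts were above all of these. Chromatin and cell cycle genes gave -1.62 for H2afy2, -1.56 for Hmga1, -1.22 for Cbx7, -1.19 for Mcm2, -1.11 for Kdm5b, -1.03 for Ccnd1, -0.83 for Phc1 and 1.36 for Ccne2. The imprinted Igf2 and Ndn gave -1.21 and 0.46, the muscle actin Acta2 -1.68 and Sf3a2 -4.89. The Y-linked Eif2s3y and Ddx3y gave 8.40 and 6.41, and Xist gave -3.83.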

How the results depend on the processing

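The count of 4572 called genes stayed within 1.5 times under other pseudocounts (4321 at 0.1 FPKM, 4655 at 5 FPKM), no filter (4190), genes listed at 0 left out (4364), a filter of 5 FPKM (3357, with fewer genes tested), median-ratio scaling (4736), added WT libraries (5404 and 5610) and moderation without a trend (4134). Requiring 2-fold left 2371, 1076 higher and 1295 lower. Leaving out 1 library at a time gave 6 to 6193 calls (0 to 2965 higher, 6 to 3228 lower), the low values without either head. Without the second head limma called 0 higher genes, while 3392 genes in both directions had an unadjusted p under 0.05, and 3112 had one without the first head, against 5766 with all libraries. In WT the range was 1903 to 4035 (939 to 2083 higher, 964 to 1952 lower), and for the interaction 1167 to 4160 (458 to 1919 positive, 709 to 2241 negative). Switch counts were 134 on and 135 off at levels of 0.5 and 2 FPKM, 23 and 25 at 1 and 10 FPKM, and 82 to 160 on and 83 to 124 off without 1 library, an alternative chosen, like the list counts without either epiblast, after seeing the data. The cause of these moves was not tested. With replicate number as a block 4757 genes were called and 2359 interactions passed. Over 10636 genes, the difference between heads and the difference between epiblasts, each first minus second, correlated at r = 0.20. The labels name no shared litter or day, so replicate numbers were not taken to pair heads with epiblasts. Of 215 called genes that the text or its rule names, none reversed under any alternative, and 210 lost their call without the second head. Where the stages of a gene do not overlap, leaving out a library or changing the pseudocount cannot reverse its direction. For such genes the lack of reversals was fixed in advance and is no measure of robustness. Depth is unknown, so no counting error can be given.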
